A study of Mus musculus with 10 samples.

Results

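Cadherins and protocadherins are calcium-dependent adhesion receptors, and their transcripts were followed here across 5 cell populations sorted from the adult mouse lung. The set was taken by name alone: every row whose Ensembl identifier maps to a mouse symbol that starts with Cdh or Pcdh followed by a digit or a lower-case letter. It holds 43 of the 14854 genes in the tables. Of 97 mouse symbols that match this pattern in the gene name table, the other 54 were not analysed here. The 43 comprise 4 type I classical cadherins, 4 type II classical cadherins, 4 further Cdh genes, 23 clustered protocadherins and 8 non-clustered protocadherins. Of these 43, 42 passed the filter on low values and were tested; the tip-link gene Pcdh15 did not.

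Cells were separated by FACS and total RNA was extracted with Trizol, with 2 libraries for each of 5 populations. The Axin2:Pdgfra, Axin2, Pdgfra and Negative populations all came from adult mice with the genotype Axin2CreERT2:tdT:PdgfraEGFP, and were sorted by both labels, by tdT alone, by EGFP alone and by neither. The Wnt2 population came from adult mice with the genotype Wnt2CreERT2:R26REFYP, so that for it mouse line and lineage cannot be told apart. CreERT2 is a recombinase that tamoxifen activates; it marks cells that express its driver gene at that time, and their descendants, whereas EGFP reports the Pdgfra locus at the time of sorting. The labels give no age beyond adult, no tamoxifen schedule and no word on whether replicate libraries stem from different mice. The p-values therefore cover the spread among these libraries alone, and that spread may be technical.

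Classical cadherins join neighbouring cells by pairing with like molecules on the other cell, and their cytoplasmic tails bind catenins, which link them to actin. Type I members include the epithelial E-cadherin and the N-cadherin of nerve, muscle and many mesenchymal cells, and type II members include the endothelial VE-cadherin and the mesenchymal cadherin-11. Protocadherins lack the catenin-binding tail. The clustered ones, alpha, beta and gamma, stand in tandem arrays from which each cell, as studied mainly in neurons, uses a few promoters, while the non-clustered ones are single genes.

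All values are deposited log2 signals, with near-identical distributions in all libraries and medians of 9.1 to 9.11. Every library has a floor, a single lowest value that 2.1% to 18.4% of its genes hold in common; such genes are said to be at the lowest value. Negative library 2 (18.4%) and Axin2:Pdgfra library 2 (15.0%) had the most such genes, and 16 of the 43 members were at the lowest value in Negative library 2, against 3 to 7 in the other 9 libraries. Counts are not part of the tables, which leaves the depth of sequencing unknown, and since length scaling is not stated no levels are compared between genes. Over the members, Spearman correlations between libraries of a group were 0.562 to 0.898 (5 pairs), and between groups 0.302 to 0.772 (40 pairs). Markers of mesenchymal cells were present in every library, with 1 of 10 fibroblast markers (Lum) at the lowest value in Negative library 2 and none of 11 mural markers at the lowest value in any. None of 12 endothelial markers was at the lowest value in any library, and at most 1 of 14 epithelial markers was in a library. Of 10 immune markers, 3 were at the lowest value in Axin2:Pdgfra library 1 and 4 in Axin2:Pdgfra library 2, against 0 to 2 elsewhere. Erythroid markers were highest in the Negative libraries. In such bulk samples, fewer cells of a type and less RNA per cell cannot be told apart.

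Cadherin and protocadherin transcripts differed widely among the 5 populations. With limma fitted over all 14177 tested genes and p-values adjusted by Benjamini-Hochberg, 12 of the 42 members (28.6%) differed among any of the populations at an adjusted p under 0.05, where 8.2% of all tested genes did. The 12 were the classical Cdh1, Cdh2, Cdh5 and Cdh11, the non-clustered Pcdh1, Pcdh7, Pcdh18 and Pcdh19, and the clustered Pcdhgc4, Pcdhb10, Pcdhb16 and Pcdhb17. None of the 4 further Cdh genes was among them. Without limma's trend and robust options 4 of the 42 passed, and leaving out a single library gave 6 to 13.

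Cdh11, the cadherin of fibroblasts and other mesenchymal cells, was high in every population with the Pdgfra label and in Wnt2 cells. Its log2 values were 14.67 and 14.4 in Axin2:Pdgfra libraries, 14.08 and 14.6 in Pdgfra, 15.47 and 14.72 in Wnt2, 12.41 and 11.96 in Axin2, and 11.47 and 11.85 in Negative libraries. All 4 libraries with the Pdgfra label lay above all 4 without it from the same mouse line, and both Wnt2 libraries lay above the other 8. The mean of Axin2:Pdgfra and Pdgfra exceeded the mean of Axin2 and Negative by 2.52 ± 0.24 on the log2 scale (SE; 95% interval 2 to 3.04; limma adjusted p = 4.52e-05). The call held with any single library left out. The Axin2:Pdgfra minus Negative difference was 2.88 ± 0.34 (limma adjusted p = 0.000289) and the Pdgfra minus Negative difference was 2.68 ± 0.34 (limma adjusted p = 0.00104); these share the Negative libraries. The Pdgfra minus Negative call was lost without limma's trend and robust options (0.0774).

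Cdh1, which encodes the E-cadherin of epithelial junctions, was highest in the Negative population. It stood at 10.07 and 7.4 in Axin2:Pdgfra libraries, 11.29 and 10.57 in Axin2, 11.68 and 11.07 in Pdgfra, 8.61 and 10.21 in Wnt2, and 14.82 and 13.66 in Negative libraries. The Negative libraries were above all 8 others, and the populations in between overlapped. Cdh1 was lower in Axin2:Pdgfra than in Negative cells by 5.5 log2 units (difference -5.5 ± 0.82, SE; limma adjusted p = 0.00122), a call that held without any single library. It was also lower with the Axin2 label (difference -2.97 ± 0.58; limma adjusted p = 0.0228) and with the Pdgfra label (-2.53 ± 0.58; limma adjusted p = 0.0168). The Axin2-label call was lost without Axin2:Pdgfra library 2, Axin2 library 1, Axin2 library 2, Pdgfra library 1 or Pdgfra library 2, at adjusted p of 0.0503, 0.0515, 0.123, 0.166 and 0.0576. The Pdgfra-label call was lost without Axin2 library 1, Pdgfra library 1, Pdgfra library 2 or Negative library 0, at adjusted p of 0.0775, 0.0537, 0.0848 and 0.0607. Without limma's trend and robust options the adjusted p was 0.172 and 0.122 for these label calls. Other epithelial markers moved with Cdh1: 10 of 14 tested were lower in Axin2:Pdgfra than in Negative cells (all tested genes 3.39%) and none was higher. Their summed log2 level was 15.24 to 15.43 in Axin2:Pdgfra and 17.83 to 17.93 in Negative libraries, and none of the 14 was at the lowest value in either Negative library. Their part in the Cdh1 result was not tested.

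Cdh5, the VE-cadherin of endothelial junctions, was lower in cells with the Axin2 label. Its values were 12.33 and 13.4 in Axin2:Pdgfra libraries, 13.39 and 12.99 in Axin2, 14.78 and 14.73 in Pdgfra, 13.2 and 13.39 in Wnt2, and 14.08 and 15.53 in Negative libraries. No library with the Axin2 label reached the lowest of the Pdgfra and Negative libraries. The mean of Axin2:Pdgfra and Axin2 was below that of Pdgfra and Negative by 1.75 log2 units (difference -1.75 ± 0.31, SE; limma adjusted p = 0.0152). This call was lost without Axin2 library 2 (adjusted p = 0.102), Pdgfra library 1 (0.139) or Pdgfra library 2 (0.0501), and without limma's trend and robust options (0.185). The 12 other endothelial markers were all above the lowest value in every library. With the Axin2 label 2 of them were called lower (all tested genes 1.14%) and none was called higher. The median log2 difference of the 12 was -1.69, beside 0.07 over all tested genes. Their summed log2 level was 13.93 to 14.3 in Axin2:Pdgfra and 15.39 to 15.42 in Axin2, against 15.73 to 15.83 in Pdgfra and 15.63 to 16.67 in Negative libraries, and their part in the Cdh5 result was not tested.

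Cdh2, which encodes N-cadherin, was high in the Axin2 and Negative populations and low or at the lowest value where Pdgfra was labelled. Axin2:Pdgfra libraries had 7.43 and 2.06 and Pdgfra libraries 5.45 and 1.95, against 10.5 and 11.72 in Axin2 and 10.73 and 11.14 in Negative libraries; Wnt2 libraries had 6.59 and 2.06. The value in Axin2:Pdgfra library 2 was the lowest of that library. The groups with and without the Pdgfra label did not overlap, and the difference was -6.8 ± 1.44 (SE; 95% interval -9.89 to -3.72; limma adjusted p = 0.0107). The call was lost without Axin2 library 2 (adjusted p = 0.0642), without Pdgfra library 2 (0.0555), without both Axin2:Pdgfra library 2 and Negative library 2 (0.065) and without limma's trend and robust options (0.0693). The floor itself ran from 1.0 to 2.67 among the libraries, and the size of this difference depends partly on it.

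**Figure D1:**
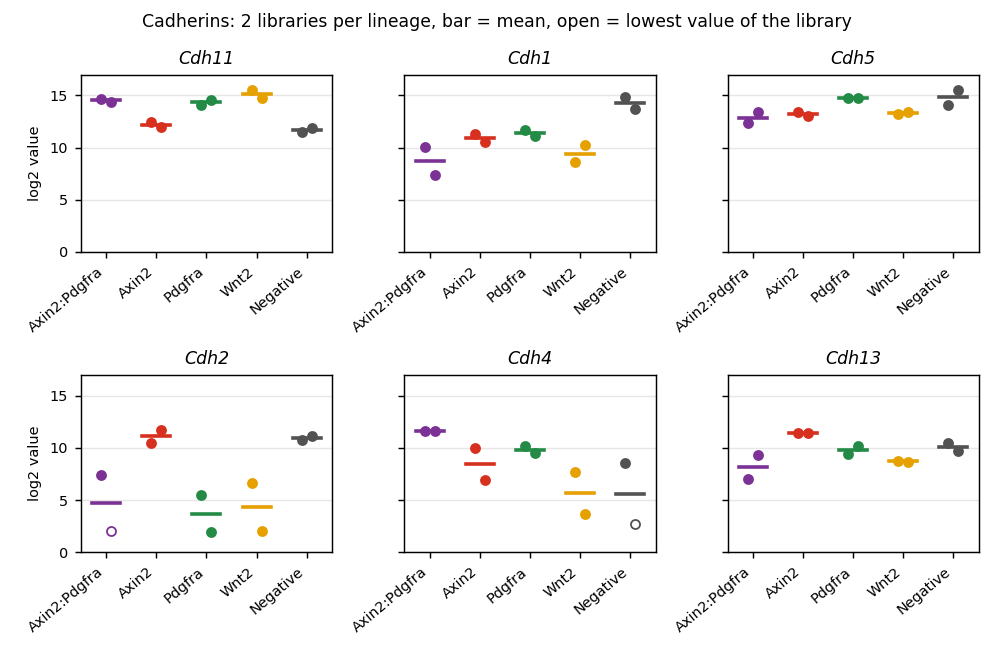
Log2 signal in each of the 10 libraries, by population, for Cdh11, Cdh1, Cdh5, Cdh2, Cdh4 and Cdh13; points are single libraries, bars their means and open points the lowest value of a library. Cdh11 is highest in Wnt2, Axin2:Pdgfra and Pdgfra libraries, Cdh1 in the 2 Negative libraries, and Cdh2 in Axin2 and Negative libraries.

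The remaining type I and type II members passed no comparison. Cdh4, or R-cadherin, had 11.6 and 11.65 in Axin2:Pdgfra, 9.96 and 6.91 in Axin2, 10.15 and 9.52 in Pdgfra, 7.68 and 3.7 in Wnt2, and 8.5 and 2.67 in Negative libraries, the last at the lowest value. Axin2:Pdgfra libraries were thus the highest and closest together, but the difference from Negative, 6.05 ± 1.79 (SE), missed the threshold (limma adjusted p = 0.0586). Cdh3, or P-cadherin, reached 8.23 and 9.76 in Axin2 libraries, did not exceed 6.64 elsewhere and was at the lowest value in 4 libraries. Cdh6, a type II cadherin of the developing kidney, had 1.7 and 6.2 in Axin2:Pdgfra and 3.36 and 1.0 in Pdgfra libraries, against 7.16 and 7.87 in Axin2 and 7.72 and 8.15 in Negative libraries. Its groups with and without the Pdgfra label did not overlap, yet the difference of -4.66 ± 1.41 (SE) was not called (limma adjusted p = 0.0672). Cdh24, a further type II cadherin, scattered within groups, with 9.67 and 1.75 in the Axin2 libraries and 1.79 and 9.24 in the Negative libraries.

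Among the 4 further Cdh genes, Cdh13 encodes T-cadherin, which is anchored in the membrane by a lipid and binds adiponectin. It had 7.03 and 9.36 in Axin2:Pdgfra, 9.44 and 10.16 in Pdgfra, 11.4 and 11.39 in Axin2, and 10.5 and 9.69 in Negative libraries, with 8.77 and 8.66 in Wnt2 libraries. The Axin2 libraries were the highest, but the Pdgfra-label difference of -1.75 ± 0.61 (SE) was not called (limma adjusted p = 0.112). Cdh23, which forms the tip link of hair cell stereocilia with Pcdh15, had 9.4 and 6.33 in Pdgfra libraries, 4.32 and 6.47 in Negative libraries and at most 4.75 in the other 6. Cdhr3, whose human counterpart is the receptor of rhinovirus C on ciliated airway cells, was at the lowest value in both Wnt2 libraries. It was there in Axin2:Pdgfra library 2 and Axin2 library 1 too, with 5.4 in Axin2:Pdgfra library 1 and 6.47 in Axin2 library 2. Pdgfra libraries had 8.45 and 3.62 and Negative libraries 6.35 and 6.18. Cdh16, a cadherin known from kidney epithelium, held the lowest value in each Axin2 library, Axin2:Pdgfra library 2, Pdgfra library 1 and Wnt2 library 1. It had 5.92 and 8.09 in Negative libraries and 6.48 in Wnt2 library 2.

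Pcdh18, a non-clustered protocadherin of the delta-2 type, was lower with the Pdgfra label and lower still in Wnt2 cells. It stood at 10.09 and 10.98 in Axin2:Pdgfra, 9.83 and 10.49 in Pdgfra and 8.61 and 8.68 in Wnt2 libraries, against 14.64 and 15.22 in Axin2 and 14.0 and 13.01 in Negative libraries. Every library with the Pdgfra label lay below every Axin2 and Negative library, and the Wnt2 libraries lay below all others. The Pdgfra-label difference was -3.87 ± 0.37 (SE; 95% interval -4.66 to -3.08; limma adjusted p = 4.52e-05). Axin2:Pdgfra cells were lower than Axin2 cells by 4.4 log2 units (-4.4 ± 0.52; limma adjusted p = 0.000669), and Wnt2 cells were lower than the mean of the other 4 populations (-3.64 ± 0.41; limma adjusted p = 0.000372). These calls held with any single library left out. The Pdgfra minus Negative difference, -3.34 ± 0.52 (limma adjusted p = 0.00376), was lost without Pdgfra library 1 (0.0566) and without limma's trend and robust options (0.0661).

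Pcdh1, which is known for adhesion between airway epithelial cells and in human genetics for asthma susceptibility, was lowest where both labels were present and in Wnt2 cells. Its values were 11.25 and 10.73 in Axin2:Pdgfra, 13.36 and 13.42 in Pdgfra and 11.07 and 11.57 in Wnt2 libraries, against 14.66 and 15.1 in Axin2 and 14.06 and 14.58 in Negative libraries. Libraries of a group lay close together, and of the 5 groups only Axin2:Pdgfra and Wnt2 overlapped. With the Pdgfra label the difference was -2.41 ± 0.25 (SE; limma adjusted p = 6.62e-05), and Axin2:Pdgfra minus Axin2 was -3.89 ± 0.36 (limma adjusted p = 8.17e-05). Both held without any single library and under every alternative fit. Axin2:Pdgfra also lay below Pdgfra, by 2.4 log2 units (-2.4 ± 0.36; limma adjusted p = 0.0263). That call was lost without Axin2:Pdgfra library 2, Axin2 library 1, Axin2 library 2, Pdgfra library 1 or Pdgfra library 2, at adjusted p of 0.0857, 0.0621, 0.0693, 0.624 and 0.122. Among cells without the Axin2 label, Pdgfra minus Negative was -0.93 ± 0.36 and was not called (limma adjusted p = 0.192). The interaction of the labels was -2.96 ± 0.51, and it was not called over all genes (limma adjusted p = 0.237).

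Pcdh19, a delta-2 protocadherin known in humans from an epilepsy of girls and women, was lowest in the Wnt2 population. It had 3.37 and 6.12 in Wnt2 libraries, against 9.33 and 7.99 in Axin2:Pdgfra, 12.1 and 12.18 in Axin2, 8.87 and 8.34 in Pdgfra, and 12.05 and 8.38 in Negative libraries. Both Wnt2 libraries were below the other 8, and the Negative libraries were far apart. The Wnt2 difference from the mean of the other 4 populations was -5.16 ± 1 (SE; limma adjusted p = 0.0141), and was lost without Wnt2 library 1 (adjusted p = 0.344) and without limma's trend and robust options (0.119). The Pdgfra-label difference, -2.55 ± 0.89, was not called (limma adjusted p = 0.115).

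Pcdh7, a delta-1 protocadherin, was near the floor in the Negative population alone. Axin2:Pdgfra libraries had 8.76 and 9.23, Axin2 10.38 and 9.03, Pdgfra 8.57 and 10.1 and Wnt2 6.18 and 5.55, against 3.85 and 2.67 in the Negative libraries, the last at the lowest value. The Wnt2 libraries lay between the Negative libraries and the other 6. Differences from Negative were 5.74 ± 1.35 for Axin2:Pdgfra (SE; limma adjusted p = 0.0201), 6.45 ± 1.35 for Axin2 (0.0492) and 6.08 ± 1.35 for Pdgfra (0.0287), which all share the Negative libraries and depend on values near the floor. The Axin2:Pdgfra call was lost, with adjusted p = 0.0653, without Axin2:Pdgfra library 1, and also without Axin2:Pdgfra library 2 (0.102) or Negative library 2 (0.0566). The Pdgfra call was lost without Pdgfra library 1 (0.106), Pdgfra library 2 (0.187), Wnt2 library 1 (0.0506) or Negative library 2 (0.0651). The Axin2 call held in 1 of the 10 fits that left out a library, the one without Negative library 0, and its adjusted p in the others was up to 0.248.

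The promoters of Pcdh18, Pcdh19 and Pcdh7 are shown because these members had the widest ranges among the called non-clustered protocadherins, and because Pcdh18 and Pcdh19 both had their highest mean in Axin2 and their lowest in Wnt2 cells. They run from 250 bases before to 50 bases after the start in RefSeq, on the build GRCm38.p6, which is not the authors' mm9: chr3:49757267-49757566 (minus strand) for Pcdh18, chrX:133688944-133689243 (minus strand) for Pcdh19 and chr5:57717831-57718130 (plus strand) for Pcdh7. Capitals mark every match, on either strand, to the motifs named after the sequences.
Pcdh18: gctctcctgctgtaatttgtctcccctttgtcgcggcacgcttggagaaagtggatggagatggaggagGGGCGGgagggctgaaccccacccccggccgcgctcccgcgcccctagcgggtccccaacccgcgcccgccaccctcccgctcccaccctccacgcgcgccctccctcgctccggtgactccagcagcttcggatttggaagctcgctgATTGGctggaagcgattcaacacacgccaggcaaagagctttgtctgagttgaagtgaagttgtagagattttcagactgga
Pcdh19: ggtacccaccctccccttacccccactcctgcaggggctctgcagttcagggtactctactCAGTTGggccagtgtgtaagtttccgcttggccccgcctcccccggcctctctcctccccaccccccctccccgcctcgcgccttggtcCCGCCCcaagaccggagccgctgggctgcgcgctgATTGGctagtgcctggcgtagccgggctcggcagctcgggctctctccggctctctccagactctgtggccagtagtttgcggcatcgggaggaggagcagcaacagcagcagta
Pcdh7: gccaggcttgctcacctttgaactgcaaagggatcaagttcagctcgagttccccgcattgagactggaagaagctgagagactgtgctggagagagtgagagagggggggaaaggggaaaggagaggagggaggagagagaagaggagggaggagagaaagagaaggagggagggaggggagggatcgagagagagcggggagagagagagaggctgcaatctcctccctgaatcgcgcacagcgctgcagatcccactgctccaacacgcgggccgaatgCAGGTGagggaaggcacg
Searched on both strands were the E-box CANNTG, held by 72.3% of the 32851 mouse promoters of the same length, the GC box GGGCGG (35.7%), TATAAA (13.6%), CCAAT (37.4%), the RBPJ core TGGGAA (25.6%), the TCF/LEF site CTTTGAT (3.73%) and the CArG box (1.63%). Pcdh18 held a GC box at -181 and a CCAAT box at -32, Pcdh19 an E-box at -189, a GC box at -100 and a CCAAT box at -65, and Pcdh7 an E-box at 33, counted from the start site. The Pcdh18 and Pcdh19 promoters shared a run of 12 bases, cgctgattggct, around the inverted CCAAT box, a feature noticed after the sequences were seen; 59 of all promoters (0.18%) hold it. GC content was 63.0% for Pcdh18, 67.7% for Pcdh19 and 59.3% for Pcdh7, where the median promoter had 52.7%. Of the 43 members, 10 had a promoter entry.

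**Figure D2:**
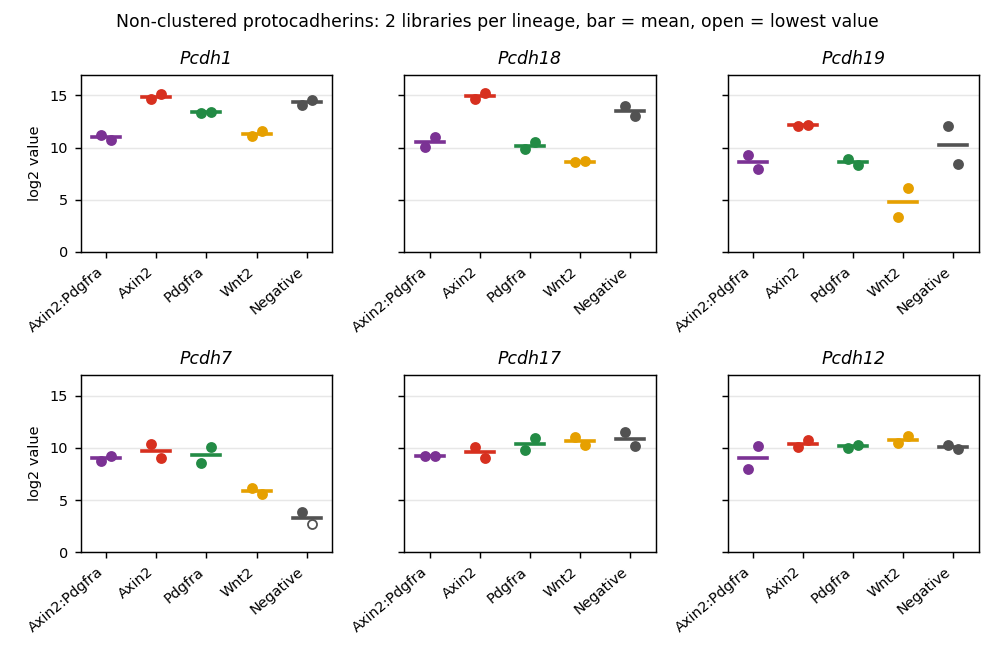
Log2 signal in each of the 10 libraries, by population, for Pcdh1, Pcdh18, Pcdh19, Pcdh7, Pcdh17 and Pcdh12; points are single libraries, bars their means and open points the lowest value of a library. Pcdh18 is at most 10.98 in Axin2:Pdgfra, Pdgfra and Wnt2 libraries, against 13.01 to 15.22 in Axin2 and Negative libraries, and Pcdh7 is lowest in the 2 Negative libraries.

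The other 4 non-clustered protocadherins passed no comparison. Pcdh17, a delta-2 protocadherin of nerve cells, ranged from 9.07 in Axin2 library 2 to 11.53 in Negative library 0. Pcdh12, also called VE-cadherin-2 and known from endothelium, ranged from 7.98 in Axin2:Pdgfra library 1 to 11.15 in Wnt2 library 2. Pcdh9, a delta-1 protocadherin, had 9.01 and 6.38 in Axin2:Pdgfra libraries and was at the lowest value in Axin2 library 2 and Negative library 2. Pcdh15 reached 8.57 in Negative library 2 and at most 4.74 in the other 9 libraries, and so was not tested.

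The clustered protocadherins in the tables were 21 beta genes, Pcdhb2 to Pcdhb22, with Pcdha11 and Pcdhgc4. All stand on chromosome 18. In the GENCODE M21 annotation Pcdhgc4 shares exon bases with all 21 other gamma genes and Pcdha11 with all 13 other alpha genes, so those rows cannot be read as single genes where the authors' counting could split or pool reads. The beta genes have exons of their own, apart from 455 bases shared by Pcdhb21 and Pcdhb22, but are close paralogs, and their single values are uncertain for that reason.

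As a group the beta genes reached moderate values most widely in Wnt2 cells and least widely in Negative cells. Of the 21, 21 and 20 were at a log2 value of at least 6 in the Wnt2 libraries, 19 and 18 in Axin2:Pdgfra, 16 and 12 in Axin2, 13 and 19 in Pdgfra, and 8 and 7 in Negative libraries, while the share of all tested genes at that level was 80.2% to 81.5% in every library. Their summed log2 level was 14.1 and 13.77 in Wnt2, 13.77 and 14.16 in Axin2:Pdgfra, 12.13 and 12.75 in Axin2, 13.1 and 13.28 in Pdgfra, and 11.63 and 11.68 in Negative libraries. The Negative libraries were the lowest on both measures, and on the summed level the Wnt2 and Axin2:Pdgfra libraries overlapped and stood above the rest. The mean was highest in Wnt2 for 13 of the 21, in Axin2:Pdgfra for 5, in Axin2 for 3 and in Pdgfra or Negative for 0, where 22.3% of all tested genes were highest in Wnt2 cells. It was lowest in Negative for 15 of the 21, where 24.8% of all tested genes were. At the lowest value were 0 to 3 of the 21 in the other 8 libraries, against 4 in Negative library 0 and 12 in Negative library 2.

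All 21 beta genes had higher means in Wnt2 than in the mean of the other 4 populations (median log2 difference 2.3). Of all tested genes 54.6% had, and their median was 0.13. By limma none of the 21 was called singly. With the Pdgfra label the difference was above 0 for 19 of the 21 (median 2.22), and for 50.2% of all tested genes. Of the 21, 3 were called, all higher, where 3.55% of all tested genes were called higher. In Axin2:Pdgfra against Negative the difference was above 0 for all 21 (median 2.8), and for 52.1% of all tested genes. Here too 3 were called, all higher, where 3.33% of all tested genes were called higher. Without Negative library 2 the difference was above 0 for 16 of 21 with the Pdgfra label (median 2.18). It was above 0 for 17 of 21 in Axin2:Pdgfra against Negative (median 3.81), and for all 21 still in Wnt2. The genes of a cluster stand side by side and are not independent of each other.

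Pcdhb10 was the beta gene whose call was steadiest. Axin2:Pdgfra libraries had 8.76 and 10.51, Pdgfra 8.83 and 8.71 and Wnt2 9.97 and 9.6, against 2.64 and 4.26 in Axin2 and 3.36 and 2.67 in Negative libraries, the last at the lowest value. All 6 libraries of the groups named first lay above 8, and all 4 Axin2 and Negative libraries were under 5. The Pdgfra-label difference was 5.97 ± 1.04 (SE; limma adjusted p = 0.00312), and it held with any single library left out and under every alternative. Pcdhb17 had 9.77 and 12.5 in Axin2:Pdgfra and 10.43 and 10.84 in Pdgfra, against 7.08 and 8.36 in Axin2 and 5.56 and 8.29 in Negative libraries, with 10.96 and 10.34 in Wnt2. These groups did not overlap either. The Pdgfra-label difference of 3.56 ± 0.77 (limma adjusted p = 0.0116) was lost without Axin2:Pdgfra library 2 (0.063), Axin2 library 1 (0.0505) or Pdgfra library 2 (0.0615) and without limma's trend and robust options (0.0768).

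Pcdhb16 had 12.23 in both Axin2:Pdgfra libraries, 10.9 and 11.11 in Pdgfra and 11.99 and 12.06 in Wnt2, against 9.24 and 10.35 in Axin2 and 10.26 and 10.54 in Negative libraries. The Pdgfra-label difference was 1.52 ± 0.37 (SE; limma adjusted p = 0.0251). It held without Axin2 library 2, Negative library 0 or Negative library 2, and was lost without any other single library, at adjusted p of 0.0566 to 0.0959. Pcdhb9 had 10.6 and 9.5 in Axin2:Pdgfra libraries, against 6.24 and 2.67, the lowest value, in Negative libraries. Their difference was 5.6 ± 1.39 (limma adjusted p = 0.0262), and it was lost without Axin2:Pdgfra library 1 (0.133), Axin2:Pdgfra library 2 (0.0765), Wnt2 library 1 (0.053) or Negative library 2 (0.122).

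Some beta genes were at the lowest value throughout a population. Pcdhb11, Pcdhb12 and Pcdhb5 were listed there in both Negative libraries, and Pcdhb2 and Pcdhb8 in both Axin2 libraries. In the Axin2:Pdgfra libraries Pcdhb8 had 7.73 and 9.21 and Pcdhb2 had 7.8 and 7.18. Pcdhb12 had 9.97 and 6.6 in Axin2:Pdgfra and 7.98 and 8.88 in Wnt2 libraries, and Pcdhb11 had 8.63 and 5.41 in Axin2:Pdgfra and 7.44 and 4.17 in Wnt2 libraries. None of these 5 was called in any comparison, and no fold is given against a group at the lowest value. Pcdhb7 and Pcdhb19 were higher in both Wnt2 libraries than in the other 8, at 9.56 and 9.57 and at 10.09 and 9.27, with limma adjusted p of 0.355 and 0.309.

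**Figure D3:**
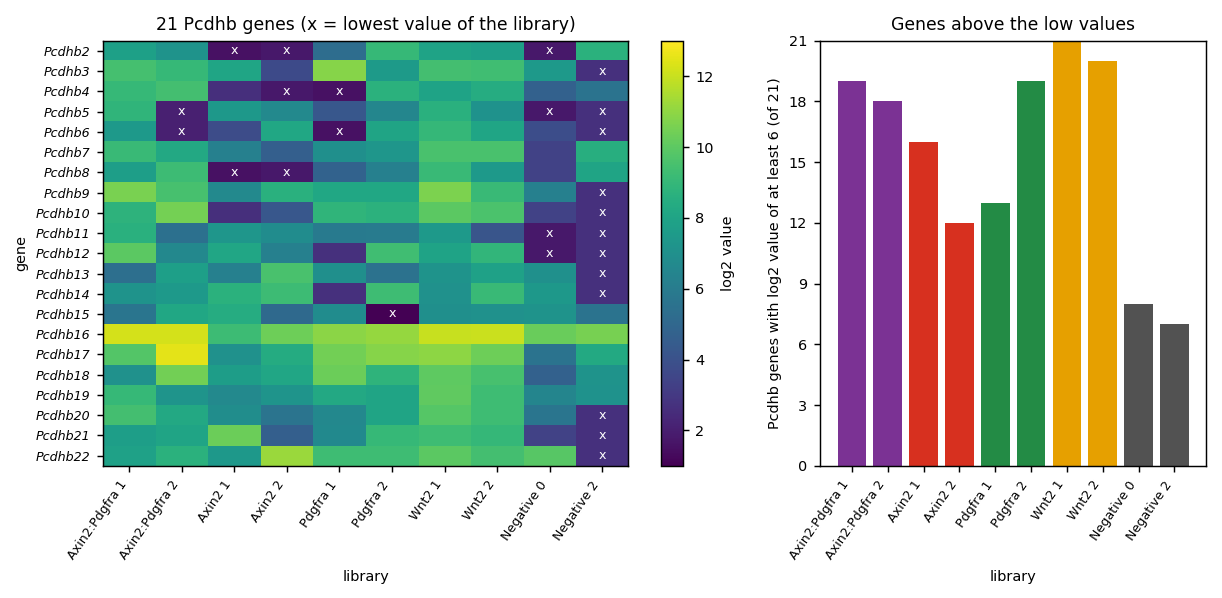
Left, log2 signal as colour for the 21 beta protocadherins (rows) in the 10 libraries (columns), with crosses at the lowest value of a library; right, how many of the 21 reach a log2 value of 6 in each library. The bars reach 21 and 20 in Wnt2 and 8 and 7 in Negative libraries, where 4 and 12 of the 21 are at the lowest value.

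The row of Pcdhgc4, which may hold reads of the whole gamma cluster, moved little. It had 14.94 and 15.24 in Axin2:Pdgfra, 14.92 and 14.9 in Axin2, 14.46 and 14.87 in Pdgfra, 14.77 and 14.87 in Wnt2, and 13.92 and 14.07 in Negative libraries, so that only the Negative libraries stood apart. Axin2:Pdgfra exceeded Negative by 1.09 ± 0.24 (SE; limma adjusted p = 0.0127), which was lost without Axin2:Pdgfra library 2 (0.11) and without limma's trend and robust options (0.274). Its difference among the 5 populations (limma adjusted p = 0.0491) was lost whichever library was left out, at adjusted p of 0.0569 to 0.119. Pcdha11, the only alpha row, went another way, with 7.79 and 7.19 in Axin2 libraries as its lowest and 10.33 and 9.96 in Negative libraries; it was called in no comparison.

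Across the comparisons, the Pdgfra label gathered the most members among the label contrasts. With it 8 of 42 members were called, 4 higher and 4 lower, where 6.48% of all tested genes were called (3.55% higher and 2.93% lower). The 4 higher were Cdh11, Pcdhb10, Pcdhb16 and Pcdhb17, and the 4 lower Cdh1, Cdh2, Pcdh1 and Pcdh18. Values did not overlap between the 4 libraries with and the 4 without the label for 5 members that were higher (all tested genes 4.9%) and 4 that were lower (3.96%). With the Axin2 label 2 of 42 were called, both lower (Cdh1 and Cdh5), where 1.64% of all tested genes were called and 1.14% were lower; 1 member was higher without overlap (Pcdhgc4; all genes 3.17%) and 1 was lower (Cdh5; 2.84%). The interaction between the labels was called for no member and for no gene (0.0%) by limma; 6 members and 9.14% of all tested genes had an unadjusted p under 0.05. Whether the numbers of calls differ between the labels was not tested.

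Between single populations, Axin2:Pdgfra against Negative gave 10 of 42 members (all tested genes 6.72%), 6 higher (3.33%) and 4 lower (3.39%). Axin2:Pdgfra against Axin2 gave 5 (2.3%), Pdgfra against Negative 3 (2.91%), Axin2 against Pdgfra 3 (2.26%), Axin2 against Negative 1 (0.6%) and Axin2:Pdgfra against Pdgfra 1 (0.0423%). The only member called between Axin2:Pdgfra and Pdgfra cells was Pcdh1, and the only one between Axin2 and Negative cells was Pcdh7. These comparisons share libraries and are not separate evidence of each other. The libraries also fall under 2 second index sequences, given in the labels as part of the barcode. Both Axin2 libraries carry the first. With it, the side without the Pdgfra label was the 2 Axin2 libraries and Negative library 0, and with the second it was Negative library 2 alone. Differences within the 2 indexes thus compare unlike populations, and the part of the index cannot be told from them. The Pdgfra-label difference kept its direction within each index for all 8 called members. For all but Cdh1 this was fixed in advance, as their values with and without the label did not overlap. It is therefore no check on the index. For Cdh11 the difference was 2.56 with the first index and 2.53 with the second. For Pcdh1 it was -2.53 and -2.28, and for Pcdh18 -3.89 and -3.04, with 2 libraries against 3 and 2 against 1. The sizes were further apart for Cdh2 (-8.98 and -4.7), Pcdhb17 (4.67 and 1.82) and Pcdhb16 (1.72 and 1.02) than for Cdh1 (-2.99 and -2.78) and Pcdhb10 (6.18 and 6.13).

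**Figure D4:**
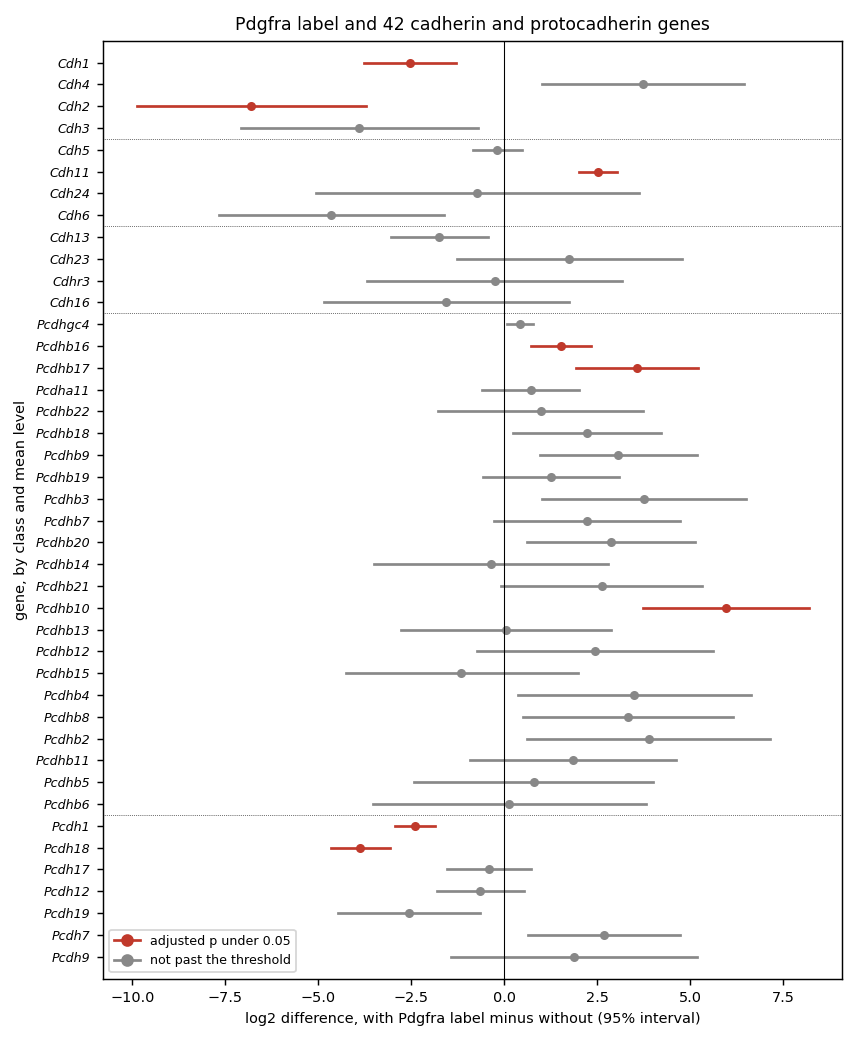
Difference in log2 signal between the mean of Axin2:Pdgfra and Pdgfra and the mean of Axin2 and Negative for the 42 tested members, with 95% intervals. The 8 called members range from -6.8 for Cdh2 to 5.97 for Pcdhb10, and 19 of the 21 beta genes are above 0.

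Wnt2 cells differed from the mean of the other 4 populations in 4 of 42 members, 1 higher and 3 lower, where 2.16% of all tested genes were called, 0.719% higher and 1.44% lower. Cdh11 was higher by 1.91 ± 0.27 (SE; limma adjusted p = 0.00173), and Pcdh1 (-2.08 ± 0.28; 0.00153), Pcdh18 and Pcdh19 were lower. Without Wnt2 library 1 the adjusted p was 0.117 for Cdh11 and 0.0574 for Pcdh1, and only Pcdh18 remained called. Values in both Wnt2 libraries lay above the other 8 for 3 members (Cdh11, Pcdhb7, Pcdhb19; all tested genes 5.47%) and below them for 3 (Pcdh18, Pcdh19, Cdhr3; 4.11%). Cdhr3 was at the lowest value in both Wnt2 libraries (1.0), but also in Axin2 library 1 (1.55) and Axin2:Pdgfra library 2 (2.06). Its place below these libraries thus reflects unequal floors and is not read as lower expression.

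Of 10 relatives in the wider cadherin superfamily that were tested, 4 were called with the Pdgfra label, 2 higher and 2 lower (all tested genes 6.48%). Fat3, an atypical giant cadherin, had 13.16 and 13.66 in Axin2:Pdgfra, 14.11 and 14.05 in Pdgfra and 15.1 and 14.73 in Wnt2 libraries, against 10.18 and 11.27 in Axin2 and 11.39 and 11.57 in Negative libraries, without overlap (difference 2.64 ± 0.28, SE; limma adjusted p = 6.36e-05). Fat1, its relative known for growth control and cell polarity, had 12.74 and 11.95 in Axin2:Pdgfra and 12.46 and 12.65 in Pdgfra, against 14.6 and 15.26 in Axin2 and 14.6 and 13.73 in Negative libraries (-2.1 ± 0.27; limma adjusted p = 4e-04). The calsyntenin Clstn2, a postsynaptic cadherin relative, had 3.62 and 4.74 in Axin2:Pdgfra and 9.29 and 6.01 in Pdgfra, against 12.67 and 12.98 in Axin2 and 12.61 and 11.68 in Negative libraries (-6.57 ± 0.73; limma adjusted p = 0.000101). These 3 calls held without any single library. Dchs1, the ligand of Fat4, was called too (1.73 ± 0.47; limma adjusted p = 0.042), but that was lost whenever any library other than Negative library 2 was left out, at adjusted p of 0.0607 to 0.165.

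Of 16 catenins and other cadherin partners tested, nectins included, 4 differed among the 5 populations by limma's F-test (all tested genes 8.2%). In Axin2:Pdgfra against Negative cells 5 of the 16 were lower (all tested genes 3.39%) and none was higher. With the Pdgfra label 1 was called, Ctnna3, which was lower (all tested genes 2.93%). With the Axin2 label 1 was called, Jup, also lower (all tested genes 1.14%). Jup, or plakoglobin, had 13.05 and 13 in Axin2:Pdgfra libraries and 14.38 and 14.7 in Negative libraries (difference -1.52 ± 0.29, SE; limma adjusted p = 0.00615), and Ctnnd1, or p120-catenin, had 13.59 and 13.46 against 14.6 and 15.16 (-1.35 ± 0.26; 0.00618). Both groups of values were apart, and both calls held without any single library. Without Axin2:Pdgfra library 2 and Negative library 2 together the adjusted p was 0.08 for Jup and 0.104 for Ctnnd1, and without limma's trend and robust options it was 0.148 and 0.191. Nectin3 and Magi1 were lost without Axin2:Pdgfra library 2 (0.165 and 0.0922), Negative library 0 (0.0865 and 0.0598) or Negative library 2 (0.0545 and 0.059). Ctnna1 was lost without any library other than Axin2:Pdgfra library 1 and Negative library 0, at adjusted p of 0.0574 to 0.266. Ctnna3, an alpha-catenin, had 1.7 and 2.06 in Axin2:Pdgfra (both the lowest value) and 1.55 (the lowest value) and 1.16 in Pdgfra, against 8.14 and 8.82 in Axin2 and 8.69 and 2.67 (the lowest value) in Negative libraries, so no size of difference is given. Its call with the Pdgfra label (limma adjusted p = 0.0447) was lost with a common lowest value (0.0685), with the stricter filter (0.0913), without limma's trend and robust options (0.0647), with the second index (0.0749) or the replicate block (0.171), and without any library other than Negative library 2 (0.0679 to 0.14). Jup with the Axin2 label (-1.05 ± 0.21; limma adjusted p = 0.024) was lost without Axin2:Pdgfra library 2, either Axin2 library, either Pdgfra library or Negative library 2, at adjusted p of 0.0565 to 0.141.

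Of 14 genes for cadherin cleavage and repression, 1 was called with the Pdgfra label (all tested genes 6.48%), Psen2, which encodes the catalytic part of a gamma-secretase (3.47 ± 0.88, SE; limma adjusted p = 0.0293). It had 10.4 and 8.97 in Axin2:Pdgfra and 8.73 and 9.2 in Pdgfra, against 7.56 and 6.47 in Axin2 and 3.85 and 5.55 in Negative libraries. The groups did not overlap, but the call was lost without 7 of the 10 libraries, namely Axin2:Pdgfra library 1 and both libraries of Axin2, Pdgfra and Wnt2, at adjusted p of 0.0583 to 0.103. It was also lost with the second index as a covariate (0.0528) and with the replicate block (0.0977). Of 14 regulators of the clustered protocadherins, among them Ctcf and the cohesin genes, none was called by limma in any directed comparison. The median difference of the 14 was furthest from 0 in Wnt2 against the other populations, at 0.84, beside 0.13 over all tested genes. By the F-test over the 5 populations 1 of the 14 was called (all tested genes 8.2%), the cohesin gene Smc1a (limma adjusted p = 0.0473). That was lost without any library other than Negative library 2 (0.051 to 0.232), without limma's trend and robust options (0.257) and with the second index as a covariate (0.0754).

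Cell type markers differed between the same populations as several members. With the Pdgfra label 10 of 10 fibroblast markers were higher (all tested genes 3.55%), and 8 of 11 mural markers were lower (2.93%) and none higher. Pdgfra itself is among the 10 and in their summed level. The EGFP label reports its locus, so its place among the higher markers was set by the sort. The summed log2 level of the mural markers was 14.78 to 15.52 in Axin2:Pdgfra, 14.67 to 14.96 in Pdgfra and 13.34 to 13.53 in Wnt2, against 18.29 to 18.56 in Axin2 and 15.94 to 17.13 in Negative libraries. That of the fibroblast markers was 17.76 to 18.06 in Axin2:Pdgfra, 17.19 to 17.9 in Pdgfra and 17.12 to 17.4 in Wnt2, against 16.42 to 16.43 in Axin2 and 14.88 to 15.5 in Negative libraries. The 6 mesothelial markers summed to 8.65 and 10.12 in Wnt2 libraries, against 12.11 to 13.82 in the other 8. Of the 6, Upk1b was called lower in Wnt2, where 1.44% of all tested genes were. With the Pdgfra label 5 of the 6 were called, where 6.48% of all tested genes were. The 4 lower were Gpm6a, Upk3b, Lrrn4 and Krt19 (all tested genes 2.93%), and the 1 higher was Upk1b (3.55%). Krt19 is on the epithelial list too. The median difference of the 6 mesothelial markers was -4.37. Their summed log2 level was 12.74 to 13.57 in Axin2:Pdgfra and 12.11 to 12.94 in Pdgfra, against 13.13 to 13.18 in Axin2 and 13.68 to 13.82 in Negative libraries; Gpm6a was at the lowest value in Axin2:Pdgfra library 1 and Msln in library 2. Of 8 Schwann cell and neuronal markers 4 were tested. With the Pdgfra label 1 was called, Sox10, which was lower (all tested genes 2.93%). Sox10 was at the lowest value in both libraries of Axin2:Pdgfra and of Pdgfra. The summed level of the 4 was 7.85 to 9.15 in Axin2:Pdgfra, 3.92 to 6.26 in Pdgfra and 6.96 to 7.06 in Wnt2, against 9.78 to 10.49 in Axin2 and 9.02 to 10.32 in Negative libraries. The part of these markers in the results for Cdh2, Cdh11, Pcdh1, Pcdh18, Pcdh19 and the beta genes was not tested. Fat1, Fat3 and Clstn2 moved with the same labels, and the part of the markers there was not tested either. In Axin2:Pdgfra against Negative cells 10 of 14 epithelial and 6 of 12 endothelial markers were lower (all tested genes 3.39%). Of the 16 catenins and partners 5 were lower there too, and the part of the markers in that was not tested.

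**Figure D5:**
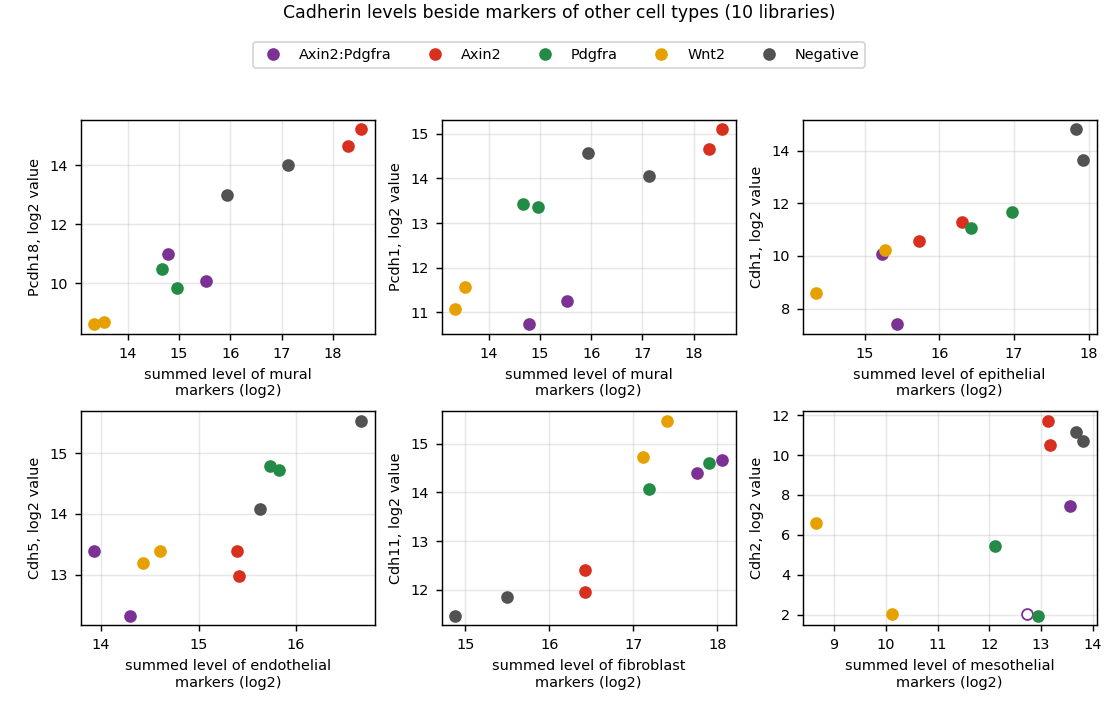
Log2 value of Pcdh18, Pcdh1, Cdh1, Cdh5, Cdh11 and Cdh2 (vertical) against the log2 summed level of a marker list (horizontal: mural for Pcdh18 and Pcdh1, then epithelial, endothelial, fibroblast and mesothelial), 1 point a library, coloured by population. Mural markers are highest in the 2 Axin2 libraries (18.29 and 18.56), where Pcdh18 and Pcdh1 are highest too, and epithelial markers in the 2 Negative libraries (17.83 and 17.93), where Cdh1 is. The fibroblast list includes Pdgfra, whose locus the EGFP label reports.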

How the data were processed

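RNA-seq libraries of 5 sorted populations, 2 each, were analysed, with groups and replicate numbers from the labels (the Negative libraries are numbered 0 and 2). Pdgfra library 1, titled by EGFP and not by Pdgfra, was placed in its group by its lineage label, GFP, which Pdgfra library 2 carries too. STAR, limma and the build mm9 are named, per the submitters' processing notes; of versions, read counter and annotation nothing is given in these sources. The authors deposited a single log2 value per gene and library, a scale inferred from the values, whose shared distribution looks like quantile normalisation. Depth is unknown, so no counting interval was computed.

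Symbols were matched to 14720 of 14854 identifiers through a gene name table, and 134 had none. The 14177 genes that reached a log2 value of 6 in 2 or more libraries were tested. limma 3.58.1 in R 4.3.3 (lmFit, then eBayes with trend and robust) was fitted to all 10 libraries with a mean per group and 5 residual degrees of freedom, two-sided, for 11 comparisons, with Benjamini-Hochberg adjustment over all tested genes and a threshold of 0.05. The fit was checked on simulated data. Differences are given with standard errors. Marker lists were summed on the linear scale and given as log2.

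Members with a call, members at the lowest value in all libraries of a group and above it in all of another, and up to 3 members per class with the highest means were named; others are given by range and count. Members and lists were chosen with earlier results of these data known. Alternatives were no filter, a minimum of 8, a common lowest value of 2.67, no trend and robust options, only the groups compared, replicate number or second index as a covariate, and each library left out; leaving out Axin2:Pdgfra library 2 and Negative library 2 together was added after seeing the data. With replicate number as a covariate (the replicate block), number 0 is held by Negative library 0 alone, so Negative in effect rests on library 2. Promoter sequences are from RefSeq (GRCm38.p6), and shared exons were read from GENCODE M21.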

Additional observations from a re-analysis of the deposited data

How the results depend on the processing

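No call among the members or the pathway lists reversed its direction under any alternative tried. Counts of members called kept within 1.5 times of the values reported, except as follows. Without limma's trend and robust options there were 4 members in the F-test over the populations (12 reported), 4 with the Pdgfra label (8), 0 with the Axin2 label (2), 3 in Axin2:Pdgfra minus Axin2 (5), 0 in Axin2:Pdgfra minus Pdgfra (1), 0 in Axin2 minus Negative (1), 5 in Axin2:Pdgfra minus Negative (10), 1 in Axin2 minus Pdgfra (3) and 1 in Wnt2 minus the others (4). Over all genes the F-test then called 205 in place of 1163. With only the groups compared there were 3 in Axin2:Pdgfra minus Axin2, 0 in Axin2:Pdgfra minus Pdgfra, 5 in Axin2:Pdgfra minus Negative and 6 in Axin2 minus Pdgfra. With the second index as a covariate there were 3 in Axin2:Pdgfra minus Axin2 and 0 in Axin2 minus Negative, and with no filter there were 0 in Axin2 minus Negative. Without both Axin2:Pdgfra library 2 and Negative library 2 there were 2 in Axin2:Pdgfra minus Pdgfra, 0 in Axin2 minus Negative, 5 in Axin2:Pdgfra minus Negative and 6 in Axin2 minus Pdgfra. The causes were not tested. Leaving out 1 library at a time gave 6 to 13 for the F-test, 4 to 11 with the Pdgfra label, 0 to 4 with the Axin2 label, 2 to 6 in Axin2:Pdgfra minus Axin2, 1 to 6 in Pdgfra minus Negative, 0 to 2 in Axin2:Pdgfra minus Pdgfra, 0 to 3 in Axin2 minus Negative, 5 to 12 in Axin2:Pdgfra minus Negative, 1 to 5 in Axin2 minus Pdgfra and 1 to 5 in Wnt2 minus the others; where this left a group with 1 library, that library was taken to vary like the other groups. The interaction stayed at 0 throughout. Whether replicate numbers pair the libraries could not be settled. Deviations of the 16 same-numbered pairs correlated at -0.06 to 0.03, and 3 of 9 libraries with such a partner correlated best with their own number. The 2 deviations of a group mirror each other, so many of these correlations repeat. They show no strong shared deviation, but cannot tell whether same-numbered libraries stem from the same mice or sort. With the replicate block there were 3 members in Axin2 minus Negative, 5 in Axin2 minus Pdgfra and 2 in Axin2:Pdgfra minus Pdgfra, and 11 with the Pdgfra label. In this block number 0 is held by Negative library 0 alone. That library in effect drops out, and Negative rests on library 2. Depth is unknown, and values near the floor of a library, above all in Negative library 2, limit what can be said of Cdh2, Cdh4, Pcdh7 and the beta genes.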
